A study of Mus musculus with 2 samples.

Results

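The renin-angiotensin genes described here are renin (Ren1), the renin-cell marker Akr1b7, angiotensinogen (Agt), angiotensin-converting enzyme (Ace), the type 1a angiotensin II receptor (Agtr1a), aminopeptidase A (Enpep) and neprilysin (Mme). They are 7 of the 32285 genes in the count matrices, taken by gene symbol, and all 7 were present. The data are Visium spatial transcriptomes, in which each spot captures the RNA of a small region that can hold several cells, of 2 mouse kidney sections of 10 µm. Both sections came from C57BL/6 mice whose kidneys were collected 7 days after the ureter on that side had been tied (unilateral ureteral obstruction), which leads to tubule injury and fibrosis. One mouse had received SH045, an inhibitor of the cation channel TRPC6, and the other its vehicle. The study as a whole used 6 obstructed mice, 3 per treatment, and its single-cell libraries are not analysed here.

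With 1 section per treatment there is no replicate check, so no test was made between the sections and no value has an SD. Levels are given as CPM, the count of a gene's UMIs per 1e+06 UMIs of the section, a UMI being the tag that marks a single captured molecule. Intervals are exact 95% intervals that cover counting error only, Poisson for a level, conditional binomial for a fold and Clopper-Pearson for a share. A gene's level is compared between places or sections and not with another gene's level, since the counts are not scaled to transcript length. In spots of mixed cells, fewer cells of a type and less RNA per cell cannot be told apart.

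The SH045 section had 790 spots with a median of 27733 UMIs, and the section labelled Vehicle had 676 spots with a median of 4932.5. One UMI was worth 0.0447 CPM in the first and 0.231 CPM in the second, so the same level was measured more precisely in the SH045 section. Mitochondrially encoded genes made up 4.24% and 10.4% of UMIs. The injury marker Havcr1 stood at 992 CPM with SH045 and at 1.62 CPM, from 7 UMIs, in the section labelled Vehicle. Lcn2, another marker of tubule injury, stood at 1233 and 2.08 CPM, and the proximal tubule phosphate transporter Slc34a1 at 585 and 4413 CPM. These levels in the section labelled Vehicle go against its description as an obstructed kidney, so every direction between the sections below is between these libraries as labelled. The log2 ratio, SH045 over Vehicle, had a median of 0.63 over the 10463 genes that reached 10 CPM in one section or both, and 75.7% of them were above 0. Ratios relative to this median are therefore given as well. The sections share 335 spot barcodes, and both tables give every barcode the same grid position.

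Renin is a protease released by granular juxtaglomerular cells in the wall of the afferent arteriole, where it enters the glomerulus. It cuts angiotensinogen to angiotensin I, from which angiotensin-converting enzyme makes angiotensin II, the peptide that constricts vessels and promotes sodium retention through type 1 receptors. Proximal tubules make angiotensinogen and carry converting enzyme and peptide-degrading enzymes on their brush border, which gives the kidney a system of its own.

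The promoters of Ren1 and Akr1b7 are shown because both genes mark renin cells and were enriched in the same spots. Each window holds the 250 bases before the gene's start in RefSeq, build GRCm38.p6, on the plus strand. Capitals mark 2 motifs, TAAATCA, the core letters of the Hox-Pbx element known from the renin promoter, and the TATA box TATAAA. The Ren1 window is chr1:133350424-133350673 and the Akr1b7 window is chr6:34412112-34412361.
Ren1: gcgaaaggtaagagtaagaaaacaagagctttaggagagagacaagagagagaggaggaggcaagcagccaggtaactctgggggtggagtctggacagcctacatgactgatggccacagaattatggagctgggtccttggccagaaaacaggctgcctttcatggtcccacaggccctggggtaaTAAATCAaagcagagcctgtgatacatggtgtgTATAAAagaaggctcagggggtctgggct
Akr1b7: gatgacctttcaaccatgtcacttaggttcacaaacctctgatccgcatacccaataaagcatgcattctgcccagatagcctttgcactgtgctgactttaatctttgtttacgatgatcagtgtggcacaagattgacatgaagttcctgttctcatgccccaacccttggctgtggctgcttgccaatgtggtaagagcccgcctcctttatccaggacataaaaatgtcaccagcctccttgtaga
In the Ren1 window the Hox-Pbx core lay upstream of the TATA box, without overlap. On both strands TAAATCA was found in 857 of 32851 RefSeq promoter windows of the same length, 2.61%, and TATAAA in 12.4% of them. Windows were held for 6 of the 7 members, 9 windows in all with more than one start for Ace and Mme. TATAAA was in 4 of these 9 windows, those of Ren1, Agt, Enpep and the upstream start of Ace, and TAAATCA in that of Ren1. The cAMP response half-site TGACG, found in 17.8% of all windows, and the HNF1 half-site GTTAAT, found in 6.43%, were in none of the 9. These matches describe letters in the windows and not sites in use.

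Ren1 (ENSMUSG00000070645) lies on chromosome 1 from 133350674 to 133360320. Its level was 175 CPM (interval 169 to 180, 3907 UMIs) in the SH045 section and 99.6 CPM (90.4 to 109, 431 UMIs) in the section labelled Vehicle. The ratio was 1.75 (1.59 to 1.94), a log2 ratio of 0.80, or 0.17 above the median of all genes. In 4 position blocks of similar spot number Ren1 stood at 426, 86.2, 127 and 28.7 CPM with SH045. In those of the section labelled Vehicle it stood at 43.5, 160, 98.9 and 121 CPM. The highest and the lowest of the 8 blocks were both in the SH045 section, and the blocks of the sections overlapped.

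A few spots carried much of the renin signal in the SH045 section. Its 5 richest spots held 750, 467, 188, 109 and 94 Ren1 UMIs, and the first alone held 19.2% of all Ren1 UMIs of the section. The 5 richest spots of the section labelled Vehicle held 18, 8, 7, 7 and 7. Without the 2 richest spots of each section the levels were 120 and 94.0 CPM and the ratio fell to 1.28, under the 1.5-fold used here as a call. With each spot thinned to 2500 UMIs, leaving out 2 shallower spots of the SH045 section and 115 of the other, Ren1 was found in 17.5% of 788 spots (14.9 to 20.4%) and in 16.2% of 561 spots (13.3 to 19.5%). Unthinned, the shares were 66.5% and 32.1%. At equal depth the intervals of the shares overlapped. Over thinned spots the variance of Ren1 counts was 18.3 times the mean in the SH045 section and 1.66 times in the other. The choice of Vehicle spots also moved the ratio. With the 334 spots of under 10% mitochondrially encoded UMIs alone, Ren1 stood at 69.99 CPM there and the ratio was 2.49.

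Akr1b7 (ENSMUSG00000052131, chromosome 6, 34412362 to 34423137) encodes an aldo-keto reductase that renin cells carry and that marks their lineage. It was low in both sections, at 6.70 CPM (5.67 to 7.86, 150 UMIs) and 7.16 CPM (4.87 to 10.2, 31 UMIs), a ratio of 0.935 (0.632 to 1.43). Its block levels were 9.88, 5.72, 8.13 and 1.66 CPM in the SH045 section and 4.73, 15.1, 8.30 and 4.64 CPM in the other, with wide overlap. It did not reach the 10 CPM needed to be counted as measured. Its paralog Akr1b8 stood at 49.6 CPM in the SH045 section against 2.54 CPM, 19.5-fold apart (10.9 to 39.2), and Akr1b3 at 157 against 55.0 CPM, while Akr1b10 stood at 25.2 and 22.4 CPM. Whether reads were shared among these similar genes was not tested.

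Akr1b7 was enriched in the spots that held most renin. Of 97 SH045 spots with an Akr1b7 UMI, 84 (86.6%) also held Ren1, against 66.5% of all spots. In the section labelled Vehicle 15 of 29 such spots (51.7%) held Ren1, against 32.1% of all spots. Deeper spots hold more of both genes, and the part of depth in these shares was not tested. In the 10% of spots with the highest Ren1 level, Akr1b7 stood at 35.9 CPM against 3.65 CPM in the remaining spots of the SH045 section, 9.83-fold (7.04 to 13.7). The 2 spots richest in Ren1 held 14 and 11 of the 76 Akr1b7 UMIs in these Ren1-rich spots. The same split in the section labelled Vehicle gave 30.7 against 5.45 CPM, 5.63-fold (2.28 to 12.7) on 9 and 22 UMIs. The arteriolar connexin Gja5, through which renin cells are coupled, was 2.56-fold (1.54 to 4.09) higher in the Ren1-rich spots of the SH045 section. The paralogs were not enriched there in the SH045 section, at 1.0-fold (0.810 to 1.22) for Akr1b8 and 0.570-fold (0.491 to 0.658) for Akr1b3.

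Podocytes, the filtering epithelium of the glomerulus, were used to place the members around glomeruli. Podocyte-rich spots were the 10% with the highest share of UMIs from 12 podocyte genes, 79 spots in the SH045 section and 67 in the other. Ren1 stood at 871 CPM in podocyte-rich spots and 111 CPM in the remaining spots of the SH045 section, 7.85-fold (7.36 to 8.37). In the section labelled Vehicle the levels were 225 and 90.9 CPM, 2.48-fold (1.87 to 3.24). Without the 2 richest renin spots these folds were 5.41 (4.98 to 5.86) and 1.85 (1.32 to 2.52). With podocyte-rich spots chosen by a core list of 4 of the podocyte genes, the fold in the SH045 section was 2.75, and 4.55 (4.19 to 4.94) when the 2 richest spots were left out as well. With the top 5% of spots it was 4.53, and 7.26 (6.65 to 7.92) without those 2 spots. The size of the fold thus differed between the definitions, both with and without these 2 spots, and the cause was not tested. Ren1 was higher in podocyte-rich spots in 3 of 4 blocks of each section, with block folds from 0.885 to 14.8 and from 0.733 to 7.44. Of the 10 SH045 spots with most Ren1 UMIs, 9 were podocyte-rich or next to such a spot, against 43.8% of all spots of that section. In the section labelled Vehicle 3 of 10 were, against 44.8%. These spots were ranked by count and not by level, which favours deep spots. The 10 Vehicle spots held 6335 to 17568 UMIs each. Median depth there was 3582 UMIs in podocyte-rich spots and 5251 in the remaining spots. The part of depth in these shares was not tested. Akr1b7 was 4.85-fold higher (3.35 to 6.92) in podocyte-rich spots of the SH045 section, and 2.14-fold (0.545 to 6.15) in those of the other section, where the interval includes no difference. Without the 2 richest renin spots these Akr1b7 folds were 3.83 (2.48 to 5.77) and 1.70 (0.330 to 5.56). Across single spots thinned to 2500 UMIs the correlation with the podocyte list was low. It was 0.09 and 0.06 for Ren1 and 0.10 and 0.05 for Akr1b7 in the respective sections.

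**Figure D1:**
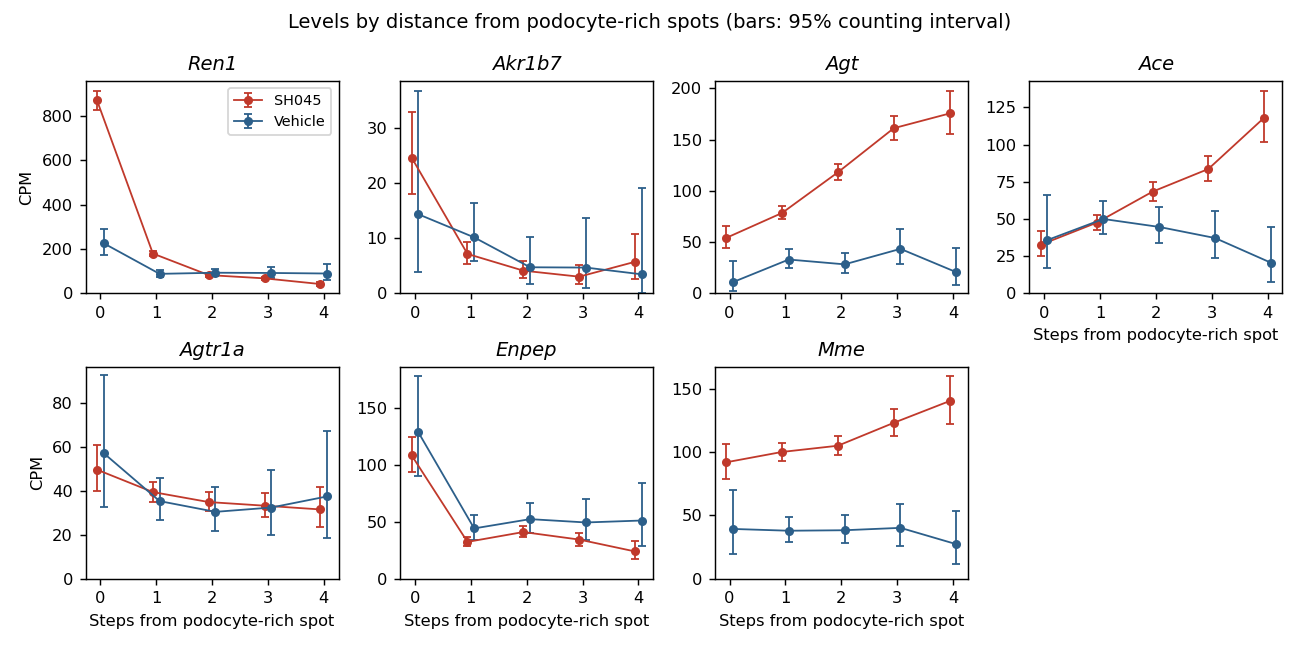
CPM of each gene (vertical axes from 0) by grid steps from the nearest podocyte-rich spot (horizontal axes), with red points for the SH045 section, blue points for the section labelled Vehicle and bars for the 95% counting interval. In the SH045 section Ren1 goes from 871 CPM in podocyte-rich spots to 41.1 CPM 4 steps away while Agt goes from 54.0 to 176 CPM, and Enpep is raised at step 0 in both sections.

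The gradient away from podocyte-rich spots ran in opposite directions for renin and its substrate in the SH045 section. Ren1 stood at 871, 179, 81.5, 66.8 and 41.1 CPM at 0, 1, 2, 3 and 4 grid steps, and at 478 and 118 CPM at steps 0 and 1 without the 2 richest spots. Agt stood at 54.0, 78.4, 118, 161 and 176 CPM over the same steps. In the section labelled Vehicle, Ren1 stood at 225 CPM in podocyte-rich spots and between 87.2 and 92.3 CPM at steps 1 to 4.

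Agt (ENSMUSG00000031980, chromosome 8, 124556587 to 124569706), the substrate from which all angiotensin peptides are cut, had the largest ratio between the sections of the 7. It stood at 112 CPM (107 to 116, 2502 UMIs) against 30.04 CPM (25.1 to 35.7, 130 UMIs), a ratio of 3.72 (3.12 to 4.47). The log2 ratio was 1.86, or 1.23 above the median of all genes. Block levels were 146, 112, 122 and 49.5 CPM against 35.0, 24.5, 23.5 and 35.6 CPM, so that the lowest SH045 block lay above the highest block of the section labelled Vehicle. After thinning to 2500 UMIs, 21.2% of spots (18.4 to 24.2%) held Agt in the SH045 section and 5.53% (3.79 to 7.75%) in the other.

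Mme and Enpep, which degrade angiotensin peptides at the cell surface, went in different directions. Neprilysin, encoded by Mme (ENSMUSG00000027820, chromosome 3, 63295211 to 63383713), stood at 108 CPM (104 to 113, 2429 UMIs) against 37.0 CPM (31.5 to 43.2, 160 UMIs). The ratio was 2.93 (2.50 to 3.47) and the log2 ratio 1.53. Its SH045 blocks stood at 116, 115, 107 and 91.9 CPM, all above the 32.1, 41.5, 35.3 and 41.0 CPM of the other section's blocks. Aminopeptidase A, encoded by Enpep (ENSMUSG00000028024, chromosome 3, 129269177 to 129332749), turns angiotensin II into angiotensin III. It stood at 41.2 CPM (38.6 to 43.9, 922 UMIs) in the SH045 section and 54.8 CPM (48.0 to 62.2, 237 UMIs) in the other, a ratio of 0.752 (0.651 to 0.871). That is a log2 ratio of -0.40, or -1.04 relative to the median of all genes. Its SH045 blocks, at 40.7, 45.7, 47.3 and 26.1 CPM, all lay below the 52.9, 58.4, 50.5 and 59.6 CPM of the section labelled Vehicle.

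Ace (ENSMUSG00000020681, chromosome 11, 105967948 to 105989964), which makes angiotensin II, stood at 64.5 CPM (61.2 to 67.9, 1443 UMIs) against 42.3 CPM (36.4 to 48.9, 183 UMIs). The ratio was 1.52 (1.31 to 1.79), just past 1.5-fold, and the log2 ratio of 0.60 was -0.04 relative to the median of all genes. Its blocks overlapped, at 91.7, 75.0, 58.0 and 21.6 CPM against 60.5, 32.0, 34.6 and 40.2 CPM. Agtr1a (ENSMUSG00000049115, chromosome 13, 30336356 to 30382867), the main type 1 receptor in mice, stood at 37.0 CPM (34.5 to 39.6, 828 UMIs) and 35.6 CPM (30.2 to 41.7, 154 UMIs). The ratio was 1.04 (0.874 to 1.24), which leaves a difference of up to 1.24-fold within counting error. The log2 ratio of 0.05 was -0.58 relative to the median of all genes, just short of the 1.5-fold call. Its blocks stood at 44.2, 32.5, 45.9 and 20.4 CPM and at 33.1, 32.0, 34.6 and 40.2 CPM, with overlap.

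Of the 6 members measured, 4 were at least 1.5-fold higher in CPM in the SH045 section, namely Ren1, Agt, Ace and Mme, where 53.2% of all genes tested were. None of the 6 was 1.5-fold lower, where 12.0% of all genes were. Relative to the median of all genes, Agt and Mme were 1.5-fold higher, 2 of 6 against a background of 27.3%, and Enpep was lower, 1 of 6 against 25.7%. Block ranges did not overlap for Agt and Mme upwards, where 56.4% of all genes did the same, and for Enpep downwards, where 13.5% did. In either direction block ranges did not overlap for 3 of 6 members and for 69.8% of all genes. These counts were near the background or below it, and nothing is read from them about the members as a group. The sections also differed in the cells they held, with proximal convoluted markers summing to 1799 and 12192 CPM, proximal straight markers to 1718 and 3176 CPM and podocyte markers to 284 and 304 CPM. The part of these in the members' ratios was not tested.

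**Figure D2:**
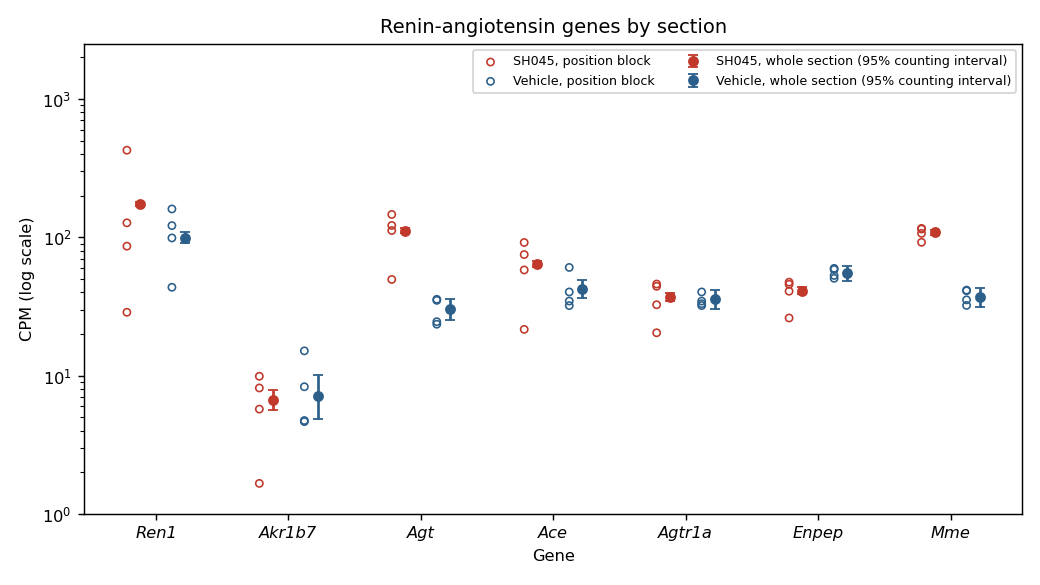
CPM (log axis) of the 7 genes, with filled points for a whole section, bars for its 95% counting interval and open circles for its 4 position blocks (red SH045, blue Vehicle). The blocks of the sections are apart for Agt, Mme and Enpep and overlap for Ren1, Akr1b7, Ace and Agtr1a, and Ren1 spreads from 28.7 to 426 CPM within the SH045 section.

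Within each section, Agt and Ace were both higher in spots rich in markers of the proximal straight tubule, the segment that descends from the cortex into the outer medulla. Spots were ordered by their share of UMIs from 14 straight segment genes that include no member, and the highest 25% were set against the lowest 25%. Agt stood at 222 against 37.9 CPM in the SH045 section, 5.86-fold (5.05 to 6.83), and at 46.5 against 9.39 CPM in the section labelled Vehicle, 4.96-fold (2.37 to 11.99) on 62 and 8 UMIs. Ace stood at 142 against 21.4 CPM, 6.65-fold (5.46 to 8.15), and at 62.3 against 17.6 CPM, 3.54-fold (2.03 to 6.61). Both were higher in all 4 blocks of both sections. The block folds of Agt were 4.27 to 6.12 and 3.60 to 11.8, and those of Ace 1.68 to 6.89 and 1.66 to 6.31. With spots ordered by Slc7a13, Slc5a8, Slc22a7 and Slc22a19 alone, the folds were 4.62 and 2.17 for Agt and 4.97 and 2.43 for Ace. Across thinned single spots the correlation with the straight list was 0.22 for Agt and 0.24 for Ace in the SH045 section, and 0.03 and 0.10 in the other, so that the section labelled Vehicle shows the link over groups of spots and hardly spot by spot.

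The other members had weaker ties to the straight segment list. Mme was 1.99-fold (1.78 to 2.23) higher in the straight-rich spots of the SH045 section, in 4 of 4 blocks, and 0.791-fold (0.505 to 1.25) in those of the other section. Agtr1a was at 1.15-fold (0.945 to 1.40) and 1.17-fold (0.698 to 2.02), with both intervals including no difference. Enpep was at 1.39-fold (1.14 to 1.68) and 1.13-fold (0.761 to 1.69), but at 0.916-fold between the highest and lowest 10% of spots of the SH045 section. Ren1 was lower in straight-rich spots of both sections, at 0.396-fold (0.356 to 0.440) and 0.341-fold (0.248 to 0.466). Without the 2 richest spots the folds were 0.669 (0.595 to 0.752) and 0.398 (0.287 to 0.550), and within blocks 3 of 4 were below 1 in the SH045 section, with 1.31 in the other block, and 4 of 4 in the section labelled Vehicle.

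Markers of the proximal convoluted tubule, the cortical first segment, gave a different picture for renin in each section. Ren1 was 4.98-fold (4.39 to 5.66) higher in the convoluted-rich 25% of spots of the SH045 section, and 2.31-fold (2.03 to 2.65) without its 2 richest spots. In the section labelled Vehicle it was 0.236-fold (0.163 to 0.334), 38.4 against 163 CPM. Agt and Ace were higher with this list in both sections, at 2.57-fold and 4.22-fold in the SH045 section and 2.26-fold and 2.20-fold in the other. Agtr1a was 2.70-fold (2.11 to 3.50) higher in the SH045 section and 0.963-fold (0.600 to 1.55) in the other, and Enpep was 2.55-fold (2.05 to 3.20) and 1.47-fold (0.977 to 2.23). Median depth differed between these spots, at 35938 and 21055 UMIs in the SH045 section and 4329 and 4267 UMIs in the other. Its part in the folds was not tested.

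Among the lists plotted, Ren1 had its largest folds with markers of the distal convoluted and connecting tubule. These are cortical segments downstream of the macula densa. Ren1 stood at 422 against 30.004 CPM between the highest and lowest 25% of SH045 spots, 14.1-fold (11.9 to 16.7). In the section labelled Vehicle it stood at 154 against 35.8 CPM, 4.29-fold (3.05 to 6.15). Without the 2 richest spots these folds were 7.57 (6.39 to 9.03) and 3.56 (2.49 to 5.15). Akr1b7 followed, at 6.76-fold (3.50 to 14.6) and 4.58-fold (1.42 to 19.3). Agt and Ace were lower in distal-rich spots of both sections, at 0.691-fold and 0.796-fold in the SH045 section and 0.322-fold and 0.400-fold in the other.

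**Figure D3:**
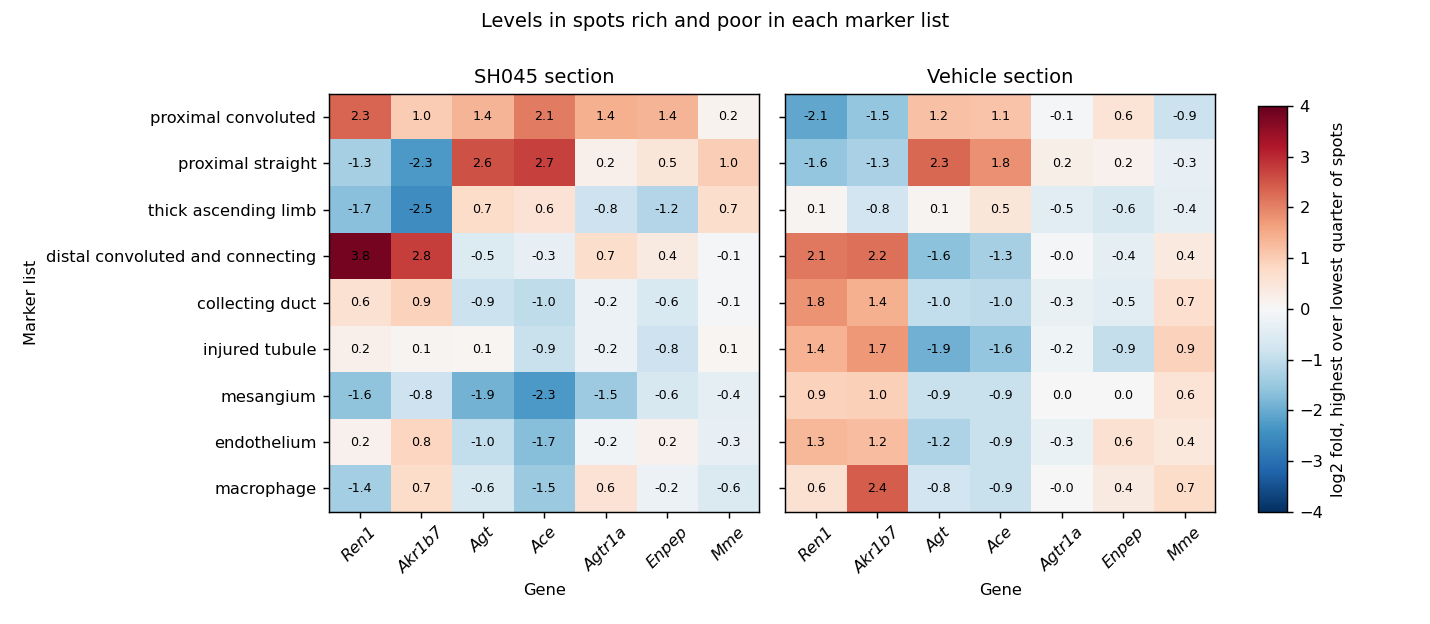
Log2 fold of each gene (columns) between the 25% of spots highest and lowest in each marker list (rows), red for higher in list-rich spots and blue for lower, for lists with a value in both sections. Agt and Ace are red in both proximal rows of both panels, Ren1 and Akr1b7 are red in the distal row of both panels, and Ren1 has opposite colours in the proximal convoluted row.

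Enpep was higher in podocyte-rich spots of both sections. It stood at 108 CPM in podocyte-rich spots and 35.0 CPM elsewhere in the SH045 section, 3.10-fold (2.64 to 3.62), and at 129 and 49.7 CPM in the section labelled Vehicle, 2.59-fold (1.77 to 3.71). It was higher in podocyte-rich spots in 4 of 4 blocks of each section, with block folds of 2.20 to 3.83 and 1.21 to 3.70. One step away it was already down to 32.4 and 44.2 CPM. Aminopeptidase A is known on podocytes and on the proximal brush border. Between the 5% richest spots and the rest the SH045 fold was 4.64. Across thinned single spots the correlation of Enpep with the podocyte list was 0.0006 in the SH045 section and 0.08 in the other. After this thinning 8.12% of spots in the SH045 section and 12.8% in the other held Enpep, so most spots held none. Thinned to 10000 UMIs, the correlation in the SH045 section was 0.10. The link thus shows over groups of spots and is weak spot by spot, at depths where few Enpep UMIs are left. Nphs1, one of the podocyte genes that chose the spots, was 41.5-fold higher in podocyte-rich spots of the SH045 section and 15.0-fold in those of the other.

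Agtr1a was modestly higher in podocyte-rich spots, at 49.7 against 35.8 CPM in the SH045 section, 1.39-fold (1.11 to 1.72), and at 57.2 against 34.1 CPM in the other, 1.68-fold (0.933 to 2.82). The direction was the same in 4 of 4 blocks of each section, and the interval in the section labelled Vehicle includes no difference. With the core list of podocyte genes the Agtr1a folds were 1.24 (0.987 to 1.55) and 1.32 (0.684 to 2.32), and both intervals include no difference. With the top 5% of spots they were 1.73 (1.32 to 2.24) and 1.07 (0.344 to 2.56). Its correlation with the podocyte list across thinned single spots was -0.04 and 0.08. Agt was lower in podocyte-rich spots of the SH045 section, at 0.461-fold in all and 0.290 to 0.595 within blocks, and Ace was lower at 0.484-fold. Mme differed little, at 0.836-fold (0.711 to 0.976) and 1.07-fold (0.522 to 1.97).

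**Figure D4:**
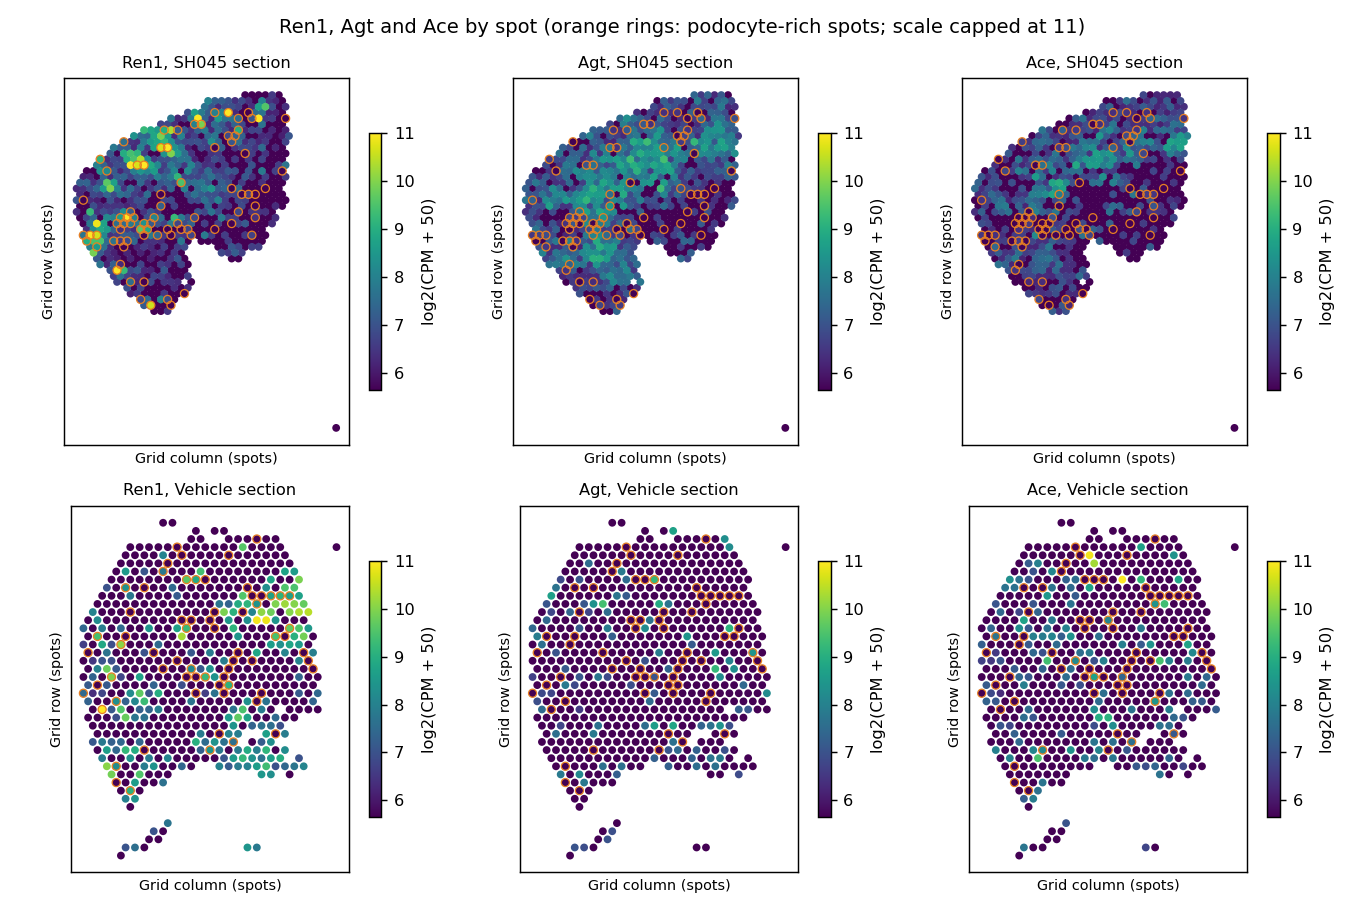
Ren1, Agt and Ace in each spot of the SH045 section (upper row) and the section labelled Vehicle (lower row), as log2(CPM + 50) on a colour scale capped at 11, with axes in grid positions and orange rings on the 79 and 67 podocyte-rich spots. Ren1 forms isolated bright spots in the SH045 section, Agt and Ace form a broad band inside it, and no such band is seen in the shallower section.

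The band of Agt and Ace lay deep in the SH045 section. Counted in grid steps from the outline of the captured spots, Agt stood at 67.0, 92.6, 133, 173 and 218 CPM at steps 1 to 2, 3 to 4, 5 to 6, 7 to 8 and 9 to 10. Ace stood at 48.5, 50.1, 71.1, 95.7 and 117 CPM, and Mme at 86.0, 97.1, 119, 146 and 156 CPM. Straight segment markers moved with them, summing to 1272 CPM in the outermost bin and 3503 CPM in the innermost. Ren1 stood at 160, 274, 149, 91.7 and 83.3 CPM. Its 2 richest spots lay in the outer 4 steps, and without them these levels were 95.5, 151, 149, 91.7 and 83.3 CPM, with no peak at steps 3 to 4 beyond the level at steps 5 to 6. Agtr1a, between 33.0 and 41.7 CPM, and Enpep, between 32.2 and 44.3 CPM, had no such gradient. In the section labelled Vehicle, Ren1 went from 123 CPM (108 to 140) in the outermost bin to 48.8 CPM at steps 9 to 10, and Agt and Mme showed no trend beyond their intervals. Moran's I, which is above 0 when adjacent spots are alike, was computed over spots thinned to 2500 UMIs. It was 0.18 for Ren1, 0.13 for Ace, 0.10 for Agt and no more than 0.01 for the other members in the SH045 section, and 0.10 for Ren1 and no more than 0.04 for the other members in the section labelled Vehicle. Over unthinned spots, which differ in depth between the sections, it was 0.50 for Agt, 0.43 for Ren1 and 0.37 for Ace in the SH045 section and 0.04, 0.29 and 0.02 in the other.

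**Figure D5:**
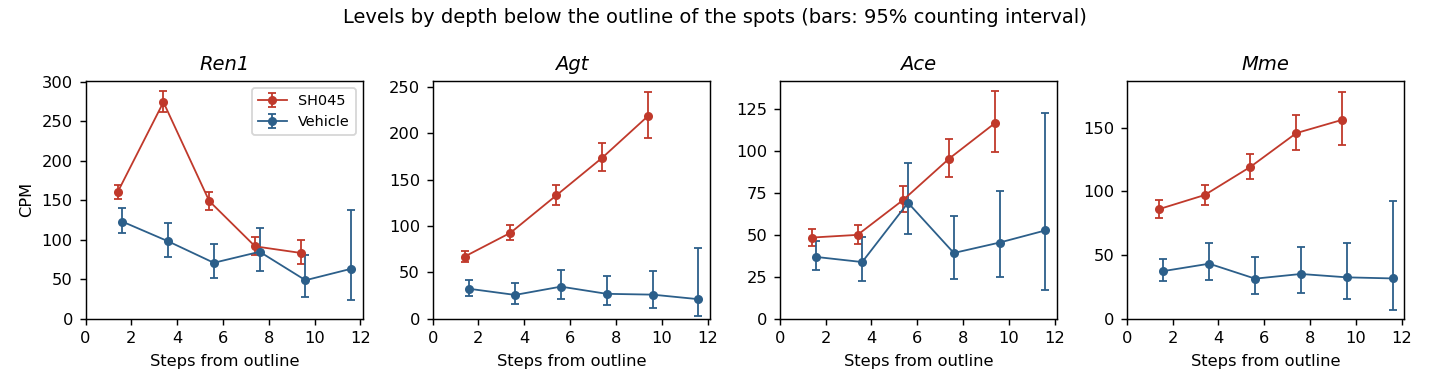
CPM of 4 genes (vertical axes from 0) by grid steps from the outline of the captured spots (horizontal axes, points at the middle of bins of 2 steps), with bars for the 95% counting interval, red for SH045 and blue for Vehicle. Agt climbs from 67.0 to 218 CPM, Ace from 48.5 to 117 CPM and Mme from 86.0 to 156 CPM with depth in the SH045 section, where Ren1 stands at 274 CPM at steps 3 to 4, or 151 CPM without the richest spot of that bin.

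No gene reached a Spearman correlation of 0.30 with any member across spots thinned to 2500 UMIs in either section, at which depth most spots hold no UMI of a member. Thinned to 10000 UMIs, which 768 spots of the SH045 section allowed, Agt correlated with Kap at 0.52, Napsa at 0.52 and Mep1a at 0.45, and Ace with Kap at 0.43, Slc27a2 at 0.40 and Guca2b at 0.40. Kap is an androgen-regulated proximal tubule gene and Mep1a a brush border protease. At this depth Agt correlated with the straight segment list at 0.49, Ace at 0.39 and Mme at 0.19. These are descriptions over spots that share a library and lie next to each other.

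Among 35 other genes of the pathway 24 were measured, of which 14 were 1.5-fold higher and 1 lower in CPM, and 6 higher and 5 lower relative to the median of all genes. These counts were near the shares over all genes, 53.2% and 12.0% in CPM and 27.3% and 25.7% relative to the median. Their median log2 ratio was 0.72 against 0.63 over all genes. Of the peptidases and binding proteins 11 of 12 were measured, with 5 higher, none lower and a median of 0.37, which is -0.26 relative to all genes. Relative to the median of all genes 1 was higher and 3 were lower. Lnpep, the angiotensin IV binding aminopeptidase, stood at 82.5 against 25.4 CPM, a ratio of 3.25. Rnpep, aminopeptidase B, stood at 66.8 against 35.1 CPM. The carboxypeptidases Prcp, at 56.3 against 43.2 CPM, and Ctsa, at 314 against 336 CPM, were within 1.5-fold, as were the dipeptidyl peptidase Dpp3, at 72.5 against 63.8 CPM, and the prorenin receptor Atp6ap2, at 100.4 against 117 CPM.

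Type 2 and Mas receptors were near the limit of detection. Agtr2, the receptor that opposes type 1 signalling in many tissues, had 108 UMIs in the SH045 section (4.82 CPM) and none in the other, at least 6.96-fold higher against a floor of 3 UMIs. Of the 108 UMIs 93, or 86.1%, lay in 1 of the 4 position blocks, at 22.0 CPM, and the other blocks stood between 0.520 and 0.980 CPM. That block also had the highest level of fibroblast and matrix markers, 5457 CPM against 1601 to 2658 CPM in the other blocks. The 25% of spots richest in these markers held 86 UMIs and the poorest 4, 37.3-fold (14.1 to 140), and within that block alone the fold was 10.3 (4.45 to 29.4). Without that block it was 3.73 (0.851 to 22.3) on 7 and 3 UMIs, and the interval includes no difference. Agtr2 was 2.65-fold (1.56 to 4.30) higher in podocyte-rich spots, and 2.82-fold (0.510 to 10.4) without that block. In Ren1-rich spots 3 UMIs gave a ratio of 0.274 (0.0555 to 0.822). Fibroblast and matrix markers summed to 2851 and 84.1 CPM in the respective sections, and their part in the Agtr2 difference was not tested. Mas1, the angiotensin 1-7 receptor, stood at 0.268 CPM (6 UMIs) with SH045 and at 1.85 CPM (8 UMIs) in the section labelled Vehicle. That is a ratio of 0.145 (0.0415 to 0.476), on few UMIs and at levels under the 10 CPM needed to be counted as measured. Agtr1b had 1 and 0 UMIs, and Mrgprd had none in either section. Agtrap, a protein that binds the type 1 receptor, was the measured one of the 5, at 78.2 and 73.3 CPM.

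Of 18 genes that control renin cells 12 were measured, with 9 higher, 1 lower and a median log2 ratio of 1.06, where 53.2% of all genes were higher and 12.0% lower. Relative to the median of all genes 5 were higher and 2 lower, where 27.3% and 25.7% of all genes were. Nothing is read from these counts about the 12 genes as a group. Renin release and transcription are driven by cyclic AMP, and several of its parts were in this list. The stimulatory G protein gene Gnas stood at 947 against 685 CPM, within 1.5-fold. The adenylyl cyclase Adcy6 stood at 60.1 against 27.7 CPM, the protein kinase A subunits Prkaca at 67.2 against 40.7 CPM and Prkar1a at 286 against 139 CPM. The co-activators Crebbp, at 70.2 against 29.8 CPM, and Ep300, at 54.3 against 25.9 CPM, and the Notch pathway factor Rbpj, at 56.9 against 20.1 CPM, were also 1.5-fold higher in CPM. Relative to the median of all genes Rbpj was still past 1.5-fold, with a log2 ratio of 0.82, and Adcy6 (0.46), Prkaca (0.08), Prkar1a (0.40), Crebbp (0.57) and Ep300 (0.41) were not. These genes are active in many cell types, and their level in renin cells alone was not measured by whole sections.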

How the data were processed

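Visium libraries of 2 kidney sections were analysed. The deposited counts are UMI counts per gene and spot, made by the authors with Space Ranger 2.0.1 on mm10 per the submitters' processing notes. Alignment settings and the release of the annotation: not given in the sources used here. All spots of each deposited matrix entered. The Vehicle position table marks 1210 spots as tissue, of which 570 are in its matrix, so the flagged spots alone were an alternative. Samples were grouped by their labels, and depth was 22388623 UMIs (SH045) and 4327613 UMIs (Vehicle).

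Summed counts were divided by the section total and multiplied to 1e+06. Genes of at least 10 CPM in either section counted as measured, and 1.5-fold was the call. Spots were thinned to 2500 UMIs for shares. Position blocks were made by dividing spots by row and then by column. Marker lists held no member. TMM factors came from edgeR 4.0.16 in R 4.3.3, without its tests. Other steps used Python 3.11.15 with scipy 1.17.1, numpy 2.4.6 and pandas 2.3.3, and were tested on simulated data. Alternatives were other scalings, spot sets, thresholds and landmark definitions. Genes named were the members, pathway genes of at least 50 CPM (1 is not reported here), receptors and Akr1b paralogs at any level, up to 3 genes of Spearman correlation of at least 0.30 with a member, and tissue checks. Gja5, Nphs1 and genes correlated at 10000 UMIs were added after their values were seen. Members and lists were chosen with earlier results of these data known. Promoters came from RefSeq.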

Additional observations from a re-analysis of the deposited data

How the results depend on the processing

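One section per treatment and the 5.62-fold gap in median depth limit every contrast between sections. No paired analysis was possible because each treatment has 1 section, and leaving out a section leaves no comparison. With TMM factors the log2 ratios were 0.20 (Ren1), 1.26 (Agt), -0.0041 (Ace, reversed), -0.54 (Agtr1a), -1.002 (Enpep) and 0.93 (Mme), with 2 members called higher and 1 lower and 6 and 5 pathway genes. With median-of-ratios factors they were 0.15, 1.22, -0.046 (Ace, reversed), -0.58, -1.04 and 0.88, with 2 members called higher and 2 lower and 5 and 5 pathway genes. Both factors move the median of all genes by more than 0.1, to 0.0050 and -0.045.

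The Ren1 log2 ratio was 1.07 with the flagged Vehicle spots, 1.31 with Vehicle spots of under 10% mitochondrially encoded UMIs, 0.64 as a mean over spots and 0.35 without the 2 richest spots. The Ace ratio was 0.35 as a mean over spots. Members called lower relative to all genes were 2 with spots of at least 2500 UMIs, as a mean over spots and without the 2 richest spots. Agtr1a was the call added, at log2 ratios of -0.61, -0.66 and -0.60 relative to all genes. Pathway genes called lower were 0 with at least 2500 UMIs, and 2 as a mean over spots and with no filter, which called 15 higher relative to all genes. At 2-fold 2 members were higher, and 1 relative to all genes.

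Podocyte-rich folds in the SH045 section were 4.53 for Ren1, 1.73 for Agtr1a and 4.64 for Enpep with the top 5% of spots. They were 2.75 for Ren1, 3.06 for Akr1b7 and 0.569 for Agt with the core list. Ren1 was 5.41 without the 2 richest spots. In the Vehicle section Ren1 was 3.45 and Ace 0.354 with the top 5%, and Ren1 1.85 without the 2 spots. Between the highest and lowest 10% by convoluted markers the SH045 folds were 14.8 (Ren1), 7.42 (Akr1b7), 5.93 (Agt), 5.94 (Ace), 4.68 (Agtr1a) and 3.78 (Enpep), and the Vehicle folds 5.15 (Agt), 5.94 (Ace) and 1.68 (Agtr1a). By straight markers they were 10.4 (Agt), 11.9 (Ace), 1.64 (Agtr1a), 0.916 (Enpep, reversed) and 2.54 (Mme), and in the Vehicle section 0.194 (Ren1) and 7.64 (Ace). With the 4 straight genes the SH045 folds were 0.346 (Ren1), 4.62 (Agt), 4.97 (Ace) and 1.14 (Enpep), and the Vehicle folds 0.615 (Ren1) and 2.17 (Agt). The cause of these differences was not tested. Members called higher were 3 in place of 4 in 5 further alternatives. Ace was the call lost with the total without mitochondrially encoded genes, with flagged Vehicle spots, with Vehicle spots of under 10% mitochondrially encoded UMIs and as a mean over spots, at ratios of 1.43, 1.49, 1.36 and 1.28. Ren1 was the call lost without the 2 richest spots. Relative to the median of all genes, the Ren1 log2 ratio of 0.17 was 0.46 with flagged Vehicle spots and 0.78 with the mitochondrial filter. It was -0.0031 as a mean over spots and -0.28 without the 2 richest spots. On the same scale Ace was at -0.29 as a mean over spots and Enpep at -0.82 with the mitochondrial filter. With this filter 3 members in place of 2 were called higher relative to all genes, Ren1 being added. The other folds and log2 ratios named above moved by less than their counting intervals, and the other counts by less than 1.5 times. The folds with the mitochondrial filter, the core list and the variants without the richest spots were chosen after seeing the data, as was the list of 4 straight genes.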

Other observations

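Around the 10 spots with most Ren1 in the SH045 section the Ren1 level was 6965 CPM at the spots themselves, 291 CPM 1 step away, 121 CPM at 2 steps and 44.5 CPM at 6 steps. The spots were chosen by Ren1, so the first value is no finding. Around the 10 Vehicle spots with most Ren1 it was 637, 110, 83.0 and 46.8 CPM at the same steps.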
